A study of Mus musculus with 2 samples.

Results

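The 5 genes described here, H19, Igf2, Meg3, Dlk1 and Rasgrf1, belong to the imprinted clusters of the mouse that are controlled by a region methylated in sperm. Their CpG sites were chosen by position alone, as all sites inside the GENCODE vM21 span of each gene or within 35 kb upstream of its transcription start site (TSS). This gave 2781 of the 13676795 CpG sites measured in replicate 1, and 931 of the 4918612 measured in replicate 2. The genomic DNA came from 2 different passages of E14 cells, a line of mouse embryonic stem cells (mESCs), and both were grown on gelatin in serum with LIF, a culture condition that the study calls primed. There was 1 condition, with no treatment and no altered gene, so the comparisons below are between regions of the same libraries. The cell type could not be checked against marker genes, since only DNA was measured. SCoTCH-seq tells unmodified cytosine (C) from its methylated form (mC) and its hydroxymethylated form (hmC) on both strands of the same DNA fragment. Each read pair that covers a CpG site therefore calls 1 of 9 CpG states, and the first letter stands for the plus strand. CC is unmodified on both strands, MM is methylated on both, MC/CM is methylated on 1 strand, HC/CH and HM/MH hold hmC on 1 strand opposite C or mC, and HH holds hmC on both. A level below is the percentage of all calls in a region that had the named state, and a call is 1 read pair at 1 CpG site.

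An imprinted gene is expressed from the copy inherited from 1 parent, and the choice is set by an imprinting control region that was methylated in only 1 of the parental germ lines. Most such regions are methylated in the egg and lie at promoters. The few that are methylated in sperm lie between genes. The region upstream of H19, a noncoding RNA, binds the insulator protein CTCF on the unmethylated maternal copy and so keeps distal enhancers from Igf2, the gene of an embryonic growth factor. The intergenic region between Dlk1 and Meg3, called the IG-DMR, controls Dlk1, which encodes a transmembrane ligand related to those of Notch and is expressed from the paternal copy, and the maternally expressed noncoding RNA Meg3. Rasgrf1 encodes a guanine nucleotide exchange factor for Ras proteins and is expressed from the paternal copy in neonatal brain, under a repeat-rich control region upstream of it. After fertilization, the zinc finger protein ZFP57 binds the methylated form of the hexamer TGCCGC and helps to keep methylation at control regions.

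On GRCm38 (mm10), H19 (ENSMUSG00000000031.16) lies at chr7:142575529-142578143 and Igf2 (ENSMUSG00000048583.16) at chr7:142650766-142666816, both on the minus strand. Dlk1 (ENSMUSG00000040856.17) lies at chr12:109452823-109463336 and Meg3 (ENSMUSG00000021268.17) at chr12:109541001-109571726, both on the plus strand, as is Rasgrf1 (ENSMUSG00000032356.12) at chr9:89909908-90026977. The 5 loci, each with its 35 kb upstream, do not overlap. The control regions were taken by distance from the first annotated TSS of the gene, from knowledge of the loci. The H19 control region was the stretch from 4 to 2 kb upstream, at chr7:142580144-142582143, and holds no annotated gene. The IG-DMR was the stretch from 15 to 10 kb upstream of Meg3, at chr12:109526001-109531000, where the annotation holds 1 exon of Gm27528, a transcript model still to be experimentally established. The Rasgrf1 control region was the stretch from 32 to 28 kb upstream, at chr9:89877908-89881907, and holds no annotated gene. Sequences that match motifs of ZFP57 and CTCF are shown because the state of their own CpG sites was read here. The ZFP57 hexamer TGCCGC, searched on both strands, was found in 5.89% of 2395567 autosomal 1 kb bins of the reference, and occurred 5 times in the H19 control region, 10 times in the IG-DMR and 7 times in the Rasgrf1 control region. A 9-letter part of the CTCF motif that holds its CpG, CGNGGNGGC, was found in 3.06% of the same bins, 3 times in the H19 control region and at 0 places in the other 2 regions. A match is a match of letters and says nothing of binding. Of the sequences below, the first pair comes from H19, the next 3 from the IG-DMR and the last from Rasgrf1. They are written 5′ to 3′ on the strand of the motif, and the motif is in capitals.
H19 CTCF match 1 (chr7:142580291-142580339, minus strand): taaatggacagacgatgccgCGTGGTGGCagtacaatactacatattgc
H19 CTCF match 3 (chr7:142582016-142582064, minus strand): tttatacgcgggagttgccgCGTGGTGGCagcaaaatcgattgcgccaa
IG-DMR hexamer 3 (chr12:109527201-109527246, minus strand): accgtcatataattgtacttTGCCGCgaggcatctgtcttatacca
IG-DMR hexamers 5 to 9 (chr12:109528276-109528464, plus strand): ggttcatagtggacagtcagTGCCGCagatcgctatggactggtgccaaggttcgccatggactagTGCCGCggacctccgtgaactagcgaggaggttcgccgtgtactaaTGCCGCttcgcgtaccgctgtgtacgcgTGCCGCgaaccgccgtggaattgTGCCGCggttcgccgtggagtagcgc
IG-DMR hexamer 10 (chr12:109530421-109530466, plus strand): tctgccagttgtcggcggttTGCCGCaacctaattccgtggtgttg
Rasgrf1 hexamer 4 (chr9:89879764-89879809, plus strand): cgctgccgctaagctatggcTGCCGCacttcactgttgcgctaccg

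The libraries differed in depth, with 143497239 calls on the chromosomes in replicate 1 and 31306245 in replicate 2, and only sites with at least 5 calls had been kept in each. Replicate 2 therefore covers each locus more thinly, as seen in the calls per locus, which ranged from 2443 at H19 to 10871 at Rasgrf1 in replicate 1 and from 539 to 2336 in replicate 2. Over all autosomes, CC made up 22.2% and 19.5% of calls in replicates 1 and 2, MM 55.8% and 59.6%, MC/CM 13.5% and 14.6%, HC/CH 4.07% and 3.66%, and HM/MH 4.01% and 2.47%. In the spiked-in controls, unmethylated pUC19 was 99.7% and 99.4% CC, while fully methylated lambda DNA was 91.0% and 92.4% MM. Lambda DNA also gave HM/MH at 3.88% of calls in replicate 1 and 0.340% in replicate 2, so MM was miscalled as HM/MH more often in replicate 1. With 1 condition and n = 2, no test between samples was possible, so values are given for each replicate where both were covered, and the main region levels carry exact Clopper-Pearson 95% intervals or the SD of the replicates. Bin levels, strand coupling ratios and corrected levels carry no interval. The intervals cover counting error only, and they treat calls as independent. A read pair can give calls at several nearby CpG sites, so the intervals may be too narrow. The reads were not assigned to a parental copy, so the copy that carried a call is not known, and copies of unlike state in every cell cannot be told apart from a mixture of unlike cells.

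The H19 control region held CC and MM side by side. In replicate 1, 192 of 487 calls at 48 CpG sites were CC (39.4%, interval 35.1 to 43.9) and 242 were MM (49.7%, interval 45.2 to 54.2). In replicate 2, CC made up 42.5% of 113 calls at 17 sites (interval 33.2 to 52.1) and MM 54.9% (interval 45.2 to 64.3). The CC level of each replicate lay within the interval of the other, and the mean was 41.0% ± 2.16 (SD, n = 2). MC/CM was further apart, at 8.01% in replicate 1 (interval 5.76 to 10.8) and 0.885% in replicate 2 (interval 0.0224 to 4.83). Both 1 kb bins of the region were alike, with CC at 42.6% and 36.2% in replicate 1, and at 44.6% and 40.4% in replicate 2. The rest of the 35 kb upstream of H19 was mostly MM, at 61.0% and 65.2%, with CC at only 16.6% and 8.18%. CC was therefore 22.8 percentage points higher in the control region than in the rest of the upstream stretch in replicate 1, and 34.3 points higher in replicate 2, and the mean difference of 28.6 points was larger than its SD of 8.12. Toward the gene CC did not follow 1 direction in replicate 1, with 28.6% in the bin that starts at -2 kb, 21.8% in the next and 43.5% of 62 calls in the bin just downstream of the TSS. In replicate 2 the first pair of these bins had 4.35% of 23 calls and 29.0% of 31 calls, and the last had 6 calls. The promoter window, which reached 1 kb upstream and 1 kb downstream of the TSS, was 30.1% CC and 53.4% MM in replicate 1, and 24.3% CC and 54.1% MM in replicate 2. Of its 55 CpG sites in the reference, 21 were measured in replicate 1 and 6 in replicate 2. The H19 gene body, from 1 kb downstream of the TSS to the transcription termination site (TTS), was 13.2% CC and 68.3% MM over 227 calls in replicate 1, while replicate 2 had only 10 calls there. A further part of the upstream stretch stood out in replicate 1, between -34 and -32 kb, where the 2 bins were 65.7% and 52.7% CC, and the first of them was 52.9% CC over 17 calls at 3 sites in replicate 2.

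The motif sites of the H19 control region were mixed in the same way, as far as they were covered. The CpG of hexamer 1, at -2.14 kb from the TSS, had 12 calls in replicate 1, of which 7 were CC and 5 MM. Hexamers 3 and 4, which face each other 3 bases apart at -3.65 kb, had 6 calls each, with 1 CC and 5 MM. The CpG of CTCF match 1 had 6 calls, 4 of them CC, 1 MM and 1 MH, and that of CTCF match 3 had 2 CC and 3 MM among 5 calls. CTCF match 2 and hexamers 2 and 5 had no site with enough calls, and replicate 2 covered none of the matches. The matches are not independent of each other. Hexamers 3 and 4 lie so close together that their equal counts can come from the same read pairs. CTCF match 1 shares 1 base with hexamer 2, and CTCF match 3 shares 1 base with hexamer 5.

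**Figure D1:**
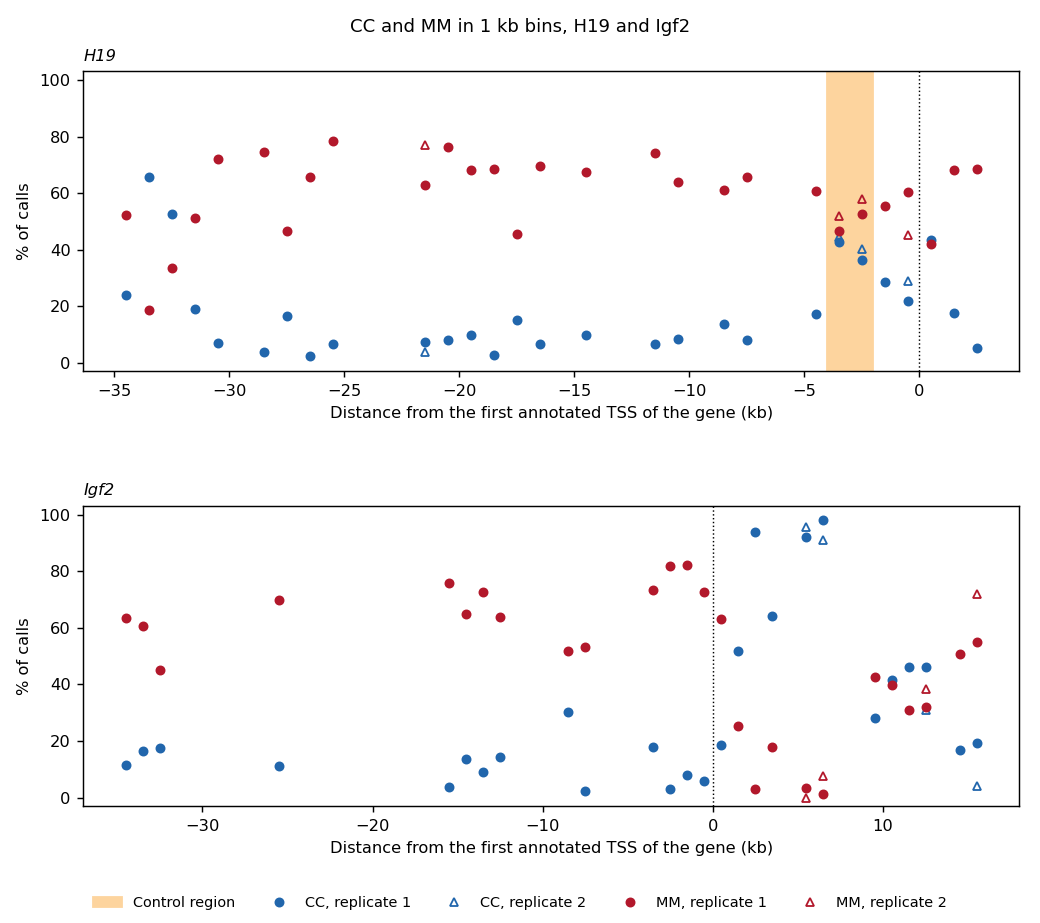
Levels of CC (blue) and MM (red) in 1 kb bins against distance from the first annotated TSS (dotted line) of H19 and Igf2, as a percentage of calls, for bins with at least 5 CpG sites, with filled circles for replicate 1 and open triangles for replicate 2. In the shaded H19 control region, CC (36.2 to 44.6%) and MM lie close together, while the Igf2 bins between 5 and 7 kb reach over 90% CC.

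The IG-DMR upstream of Meg3 was mostly CC, and MM was the most frequent of its modified states. In replicate 1, 1114 of 1527 calls at 126 CpG sites were CC (73.0%, interval 70.7 to 75.2), and 326 were MM (21.4%, interval 19.3 to 23.5). In replicate 2, 275 of 362 calls at 49 sites were CC (76.0%, interval 71.2 to 80.3) and 79 were MM (21.8%, interval 17.7 to 26.4). The mean CC level was 74.5% ± 2.13 (SD, n = 2), beside 41.0% ± 2.16 in the H19 control region. CC was thus the more frequent state in the IG-DMR, and MM in the H19 control region. The 5 bins of the region were even in replicate 1, with CC between 70.6% and 74.7%. In replicate 2 the 3 bins with at least 5 sites ranged more widely, from 57.6% to 83.3% CC. The CC-rich stretch was wider than the IG-DMR as defined here, and in replicate 1 it extended from -18 kb, with CC at 64.1% in the first bin, to -7 kb, with CC at 63.2% in the last. Replicate 2 had too few sites to place the downstream border. Beyond it CC fell within 1 bin, with CC at 21.2% in the next bin of replicate 1 and at 2.17% and 2.78% in the bins that start at -5 and -4 kb. A second CC-rich stretch covered the Meg3 promoter, which was 74.5% CC in replicate 1 (interval 70.02 to 78.65) and 80.6% CC in replicate 2 (interval 71.8 to 87.5), with MM at 16.8% and 14.8%. The Meg3 gene body was different again, at 20.5% CC and 58.7% MM in replicate 1, and 18.5% CC and 61.3% MM in replicate 2. CC was thus 52.4 and 57.4 percentage points higher in the IG-DMR than in the gene body, a mean difference of 54.9 with an SD of 3.53. Between the IG-DMR and the promoter the difference was small, at -1.56 and -4.59 points.

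The hexamers of the IG-DMR held both CC and MM. Over the 10 hexamer sites, CC made up 74.3% of 109 calls in replicate 1, beside 72.8% of 1418 calls at the other 116 sites. Only 4 of the hexamer sites were covered in replicate 2, with 65.2% CC over 23 calls, beside 76.7% of 339 calls at the other sites. In the stretch of 189 bases printed above, hexamers 5 to 9 had 7, 7, 10, 8 and 5 CC calls among 12, 11, 10, 9 and 6 calls in replicate 1. Hexamer 10 had 12 CC and 6 MM calls in replicate 1, and 7 CC calls of 7 in replicate 2. Hexamer 3 had 12 CC, 6 MM and 1 MC calls among 19 in replicate 1, but 4 MM and 1 CM calls, with no CC, among 5 in replicate 2. Counts this small do not separate 1 hexamer from another.

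**Figure D2:**
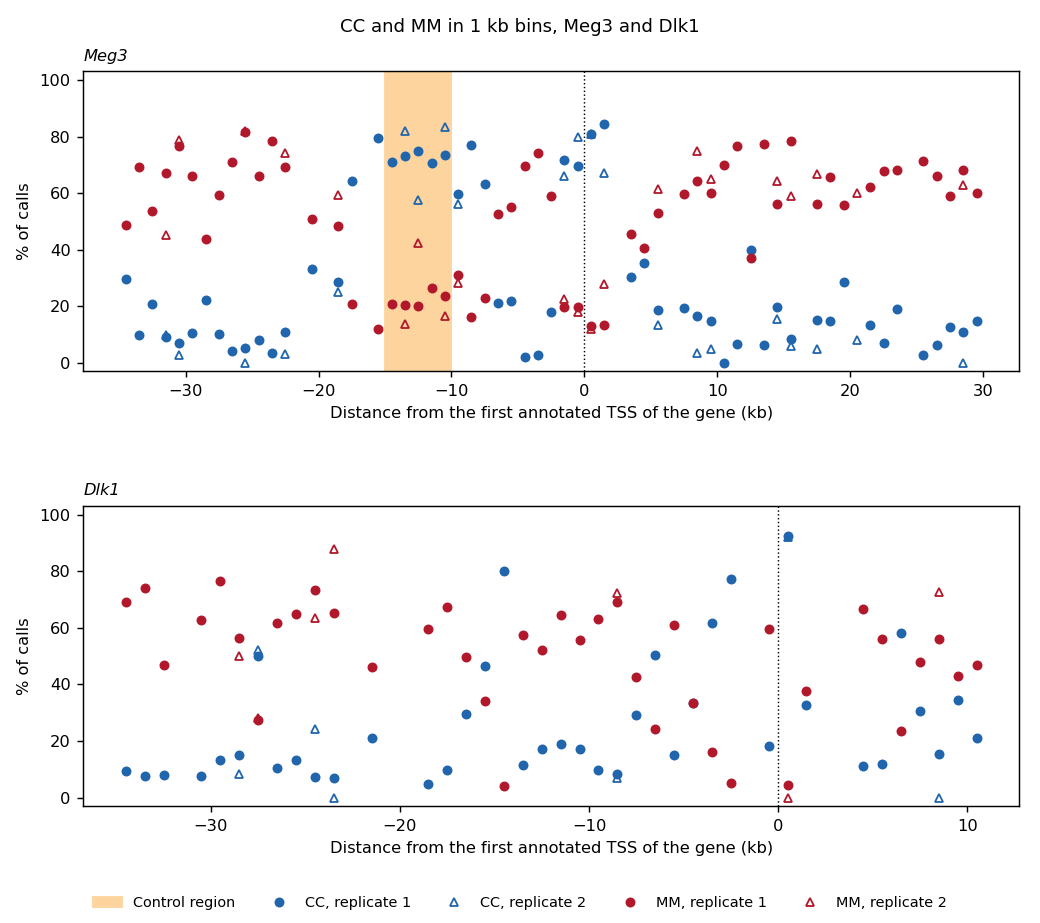
Levels of CC (blue) and MM (red) in 1 kb bins against distance from the first annotated TSS (dotted line) of Meg3 and Dlk1, as a percentage of calls, for bins with at least 5 CpG sites, with filled circles for replicate 1 and open triangles for replicate 2. In the shaded IG-DMR the replicate 1 bins hold 70.6 to 74.7% CC, and a second CC-rich stretch covers the Meg3 TSS, while the measured replicate 1 bins from -7 to -2 kb hold at most 22.0% CC.

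The Rasgrf1 control region was only partly measured. Of its 98 CpG sites in the reference, 29 had calls in replicate 1 and 14 in replicate 2, and the bins from -30 to -28 kb held none in replicate 1. CC made up 56.3% of 229 calls in replicate 1 (interval 49.6 to 62.8) and 77.8% of 90 calls in replicate 2 (interval 67.8 to 85.9), and MM 29.7% and 14.4%. The mean CC level was 67.1% ± 15.2 (SD, n = 2), a wide spread. Over only the sites measured in both replicates it was 81.3% ± 0.178, with MM at 11.0%. Those sites are a more CC-rich part of the region, so their small spread does not describe the region as a whole. The region was also not uniform. Its first bin, from -32 to -31 kb, was 25.9% CC and 49.4% MM in replicate 1, and the next, from -31 to -30 kb, was 74.3% CC in replicate 1 and 86.5% in replicate 2. All 3 hexamers with calls lay in that second bin, and hexamers 3 and 4 had only CC calls, 10 and 11 in replicate 1 and 6 and 8 in replicate 2. These 2 hexamers lie close together, so their calls can come from the same read pairs. Hexamer 1 had 3 CC, 2 MM and 1 HC calls among 6 in replicate 1, and no calls in replicate 2. Just downstream of the control region, the bins that start at -28 and -27 kb held CC at 44.6% and 41.1% and MM at 35.3% and 43.5% in replicate 1. The Rasgrf1 promoter was nearly all CC, at 96.3% and 93.6%, though only 42 and 8 of its 126 reference CpG sites were measured. The gene body was nearly the reverse, with MM at 63.95% and 71.33% and CC at 12.6% and 8.40%. CC was 43.8 and 69.4 percentage points higher in the control region than in the gene body, a mean of 56.6 with an SD of 18.1, and no replicate had the opposite order.

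**Figure D3:**
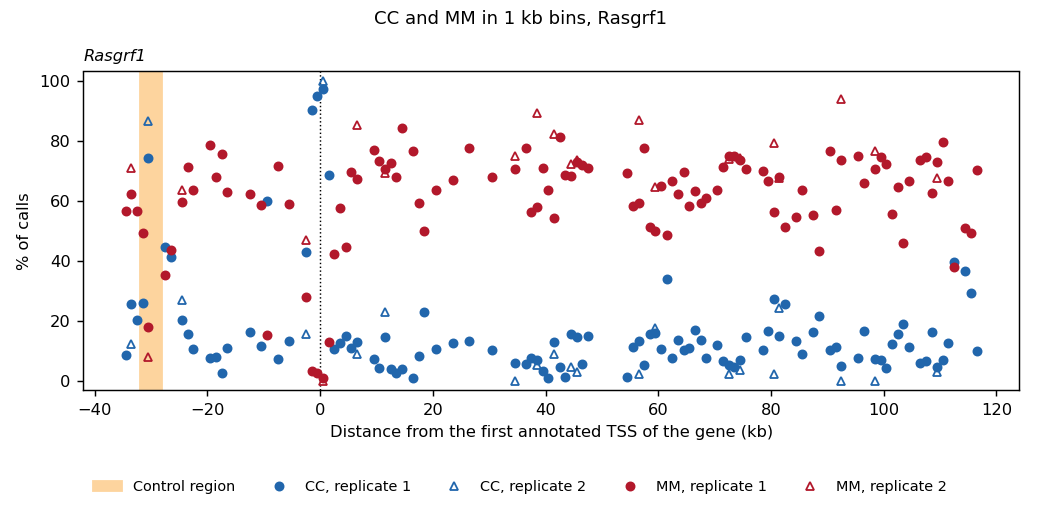
Levels of CC (blue) and MM (red) in 1 kb bins against distance from the first annotated TSS (dotted line) of Rasgrf1, as a percentage of calls, for bins with at least 5 CpG sites, with filled circles for replicate 1 and open triangles for replicate 2. The shaded control region holds few measured bins, with 74.3% and 86.5% CC in the bin from -31 to -30 kb, and the gene body is mostly MM.

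A CC level of about equal size to MM can arise in different ways, which the duplex readout separates in part: each fragment may carry the same state on both strands, or the strands may vary apart. For each region, the share of calls with only 1 strand modified was divided by the share expected if the strands had come from different read pairs at the same CpG site. This strand coupling ratio is 1 where the strands vary apart and 0 where every duplex is either modified on both strands or on neither. In the IG-DMR only 63 of 1527 calls had 1 strand modified in replicate 1 (4.13%, against 36.4% expected) and 7 of 362 in replicate 2 (1.93%, against 30.04%), which gave ratios of 0.113 and 0.0644. The H19 control region had 44 of 487 such calls in replicate 1 and only 2 of 113 in replicate 2, which gave ratios of 0.195 and 0.0332. The value of replicate 2 therefore rests on 2 calls. The Meg3 promoter had ratios of 0.184 and 0.165, from 27 of 412 and 5 of 108 such calls. These values lay at the low end of the genome. Autosomal 1 kb bins with CC between 30 and 70% and at least 50 calls had a median ratio of 0.461 in replicate 1 (quartiles 0.367 and 0.575, 160934 bins) and 0.452 in replicate 2 (quartiles 0.345 and 0.575, 11238 bins). Only 0.193% and 0.178% of those bins lay below the IG-DMR, 1.63% and 0.0979% below the H19 control region, and 1.28% and 1.92% below the Meg3 promoter, in replicates 1 and 2. This ranking is a description, since the regions are longer than the bins and the CC levels of the IG-DMR and the Meg3 promoter are above the range of those bins. At equal size, the H19 bins that start at -4 and -3 kb had ratios of 0.185 and 0.206 in replicate 1, and 0.0321 and 0.0344 in replicate 2. With a window 1 kb wider on each side, the H19 control region had ratios of 0.229 and 0.207.

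The Rasgrf1 control region had ratios of 0.447 and 0.389, with 46.5% and 34.4% of the autosomal bins below it. Unlike that of Meg3, the promoters of the other members were not low in both replicates. Their ratios were 0.349 and 0.458 at H19, 0.541 and 0.643 at Igf2, 0.578 and 0.198 at Dlk1, and 0.233 and 1.20 at Rasgrf1. In replicate 2 these promoters had only 26 to 49 calls each. The ratios use calls as made, although correction with duplex controls lowered MC/CM in the IG-DMR to 2.23% and 0.397%. The gene bodies of Meg3 (0.468 and 0.499) and Igf2 (0.409 and 0.541) lay between the quartiles of those bins, and those of Rasgrf1 (0.642 and 0.697) and, in replicate 2, Dlk1 (0.501 and 0.821) lay above them. The CC levels of most of these gene bodies, and of the Rasgrf1 control region in replicate 2, are outside the range of those bins too. Over all autosomal sites, whatever their CC, the ratio was 0.582 in replicate 1 and 0.662 in replicate 2. The gene body of Rasgrf1 was close to these values and above them, and those of Meg3 and Igf2 were below them. Outside the control regions, 32 bins of the 5 loci had CC between 30 and 70% and at least 50 calls in replicate 1, with a median ratio of 0.371 and a range from 0.179 to 0.709. Of these, 14 lay below the lower quartile of the autosomal bins. The lowest were the bin just upstream of the Meg3 TSS (0.179), the bin just downstream of the IG-DMR (0.180), the Igf2 bin from 11 to 12 kb (0.197) and the H19 bin from -33 to -32 kb (0.217). In replicate 2 only 1 bin outside the control regions had enough calls, the Meg3 bin from 1 to 2 kb, with a ratio of 0.109.

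**Figure D4:**
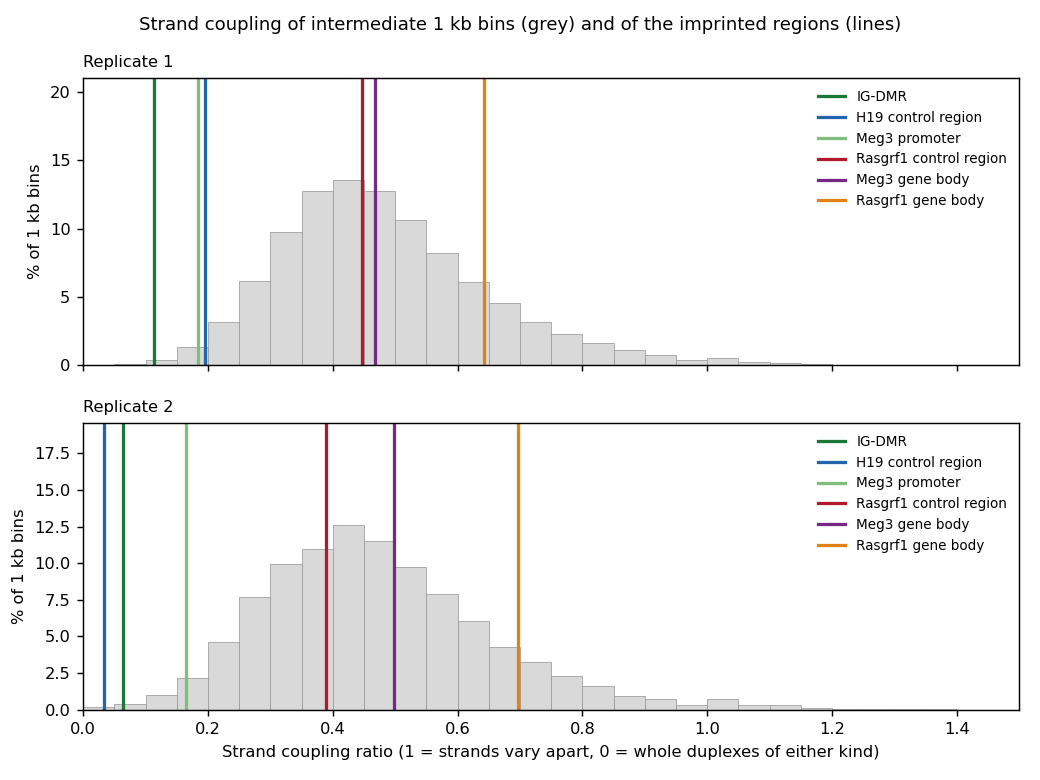
Strand coupling ratio of autosomal 1 kb bins with CC between 30 and 70% and at least 50 calls (grey histogram, percentage of bins; ratios over 1.5 are counted in the last bar), with the ratios of 6 imprinted regions as lines, for replicate 1 (top) and replicate 2 (bottom). The IG-DMR (0.113 and 0.0644), the H19 control region and the Meg3 promoter lie at the left edge, while the Rasgrf1 control region and the gene bodies of Meg3 and Rasgrf1 do not.

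Igf2 differed from the other members in that its gene body, and not its first promoter, was CC-rich. The window at its first annotated TSS was 69.7% MM in replicate 1 and 84.6% in replicate 2, with CC at 9.84% and 3.85% over 122 and 26 calls. In the gene body CC was 64.4% (interval 61.6 to 67.1) and 58.8% (interval 52.7 to 64.7). Only 152 and 45 of the 465 reference CpG sites of the gene body were measured in replicates 1 and 2. CC differed between the other annotated transcript starts. Within 0.5 kb of the start at 5.61 kb, CC was 91.8% of 233 calls in replicate 1 and 96.5% of 57 calls in replicate 2, and at the start at 7.33 kb it was 97.4% of 78 calls and 81.0% of 21 calls. Farther downstream it was lower in replicate 1, at 38.5% of 39 calls around the start at 9.35 kb, 54.1% of 85 calls at 10.80 kb and 23.1% of 26 calls at 13.79 kb. The last exon of Igf2, which holds a differentially methylated region known as DMR2, had CC at 32.4% and MM at 38.0% in replicate 1, and CC at 13.6% and MM at 66.1% over 59 calls in replicate 2. The replicates were therefore far apart there (CC 22.98% ± 13.32, SD, n = 2). Among 18932 autosomal genes with at least 20 CpG sites in the gene body in each replicate, Igf2 lay at the 96.7th percentile for CC in replicate 1 and the 96.3rd in replicate 2. Meg3 lay at the 49.9th and 56.8th percentiles for CC. Rasgrf1 lay at the 13.5th and 11.8th percentiles for CC and at the 86.7th and 92.2nd for MM. H19 and Dlk1 had too few sites in replicate 2 to be ranked.

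Dlk1 was nearly all CC just downstream of its first TSS, where the first bin was 92.4% CC in replicate 1 and 92.1% in replicate 2. The bin just upstream of the TSS was 18.1% CC and 59.7% MM over 72 calls in replicate 1. The promoter as a whole was 53.6% and 83.7% CC, and the replicates covered different sites: over those in both, the mean was 90.2% ± 3.33. Only 16 and 9 of the 108 reference CpG sites of the promoter were measured. The gene body was 30.3% CC over 911 calls in replicate 1 and 11.1% over 108 calls in replicate 2, with MM at 45.2% and 61.1%. The last exon, where a differentially methylated region of Dlk1 is known to lie, was 31.6% and 5.63% CC, with an SD of 18.3 points. These levels rest on 526 calls at 64 sites in replicate 1 and 71 calls at 12 sites in replicate 2. Over sites in both replicates, CC there was 16.95% and 6.90%. Upstream of Dlk1, only the bin from -28 to -27 kb had CC between 30 and 70% in both replicates, at 50.0% and 52.0%.

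**Figure D5:**
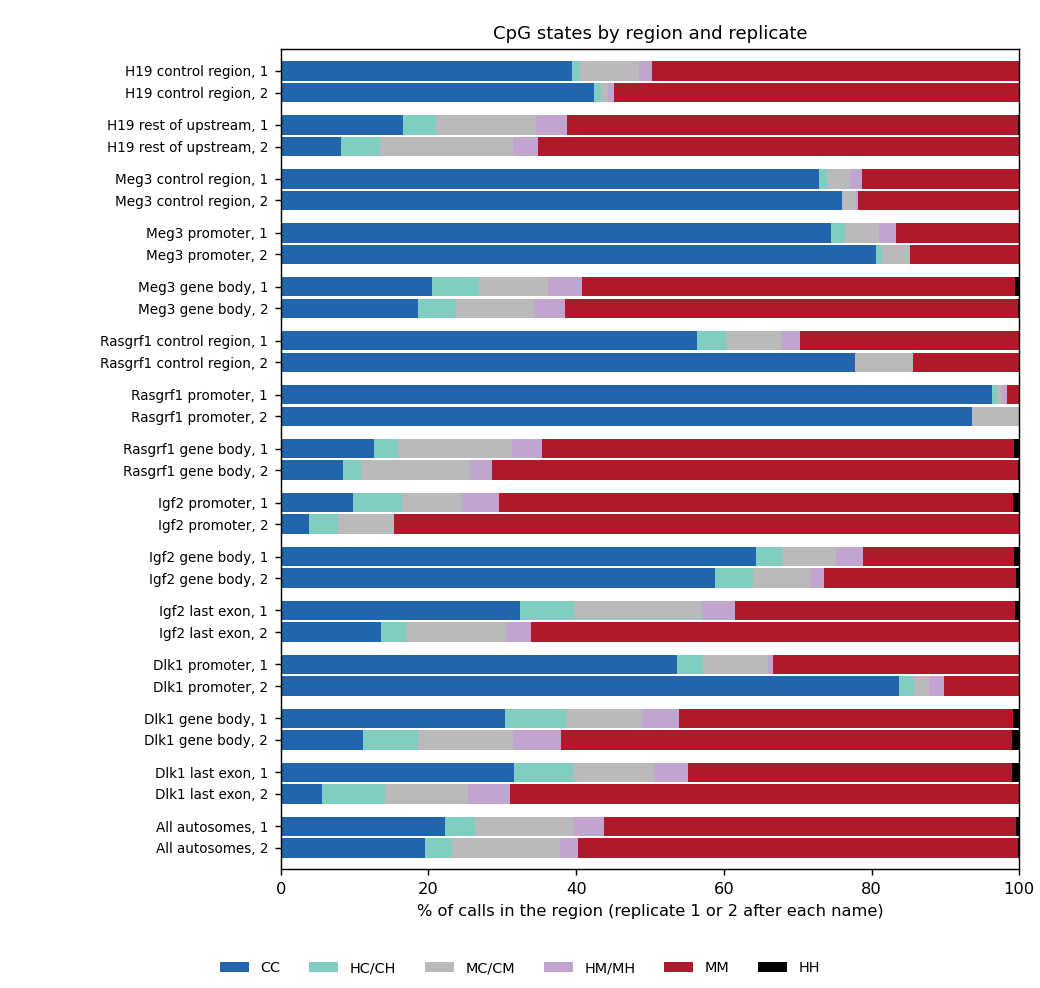
Levels of the CpG states in regions of the 5 loci and over all autosomes, as stacked percentages of calls, with replicates 1 and 2 on neighbouring bars. Grey (MC/CM), green (HC/CH) and purple (HM/MH) segments are narrow in the IG-DMR (MC/CM 3.08% and 1.93%), here named Meg3 control region, and wide in the gene bodies of Meg3, Rasgrf1 and Dlk1. The segments are shares of all calls, and the IG-DMR is mostly CC. Levels are as called, before correction with the duplex controls.

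As a share of all calls, called hydroxymethylation was lower in the IG-DMR and the H19 control region, with the borders used here, than over the autosomes. In the IG-DMR, HC/CH was 1.05% of calls in replicate 1 (interval 0.600 to 1.70), and 0 of 362 calls in replicate 2, which allows a level of up to 0.829%. In the Meg3 gene body the same states made up 6.35% and 5.20%. HM/MH was 1.57% and 0.276% in the IG-DMR, and 4.55% and 4.23% in the gene body. In the H19 control region, HC/CH was 1.03% (interval 0.334 to 2.38) and 0.885%, and HM/MH 1.85% and 0.885%. The H19 value depends on the borders, which were set by distance: with a window 1 kb wider on each side, HC/CH was 1.497% and 5.806%. In replicate 2 this was above the 3.66% of the autosomes, so the order did not hold there. HH was called at 0 of 487 and 0 of 1527 calls in these regions in replicate 1, which allows levels of up to 0.616% and 0.196%. Part of these HM/MH calls were miscalled MM. After correction with the miscall rates of synthetic duplexes of known state, HM/MH in replicates 1 and 2 was 0.0137% and 0.751% in the H19 control region, 0.548% and 0.232% in the IG-DMR, and 1.71% and 3.89% in the Meg3 gene body. Among all calls, HM/MH therefore stayed lower in the IG-DMR than in the gene body in both replicates. The IG-DMR was mostly CC, at 73.0% and 76.0%, beside 20.5% and 18.5% in the gene body. These levels alone do not tell less hmC in modified duplexes from fewer modified duplexes, and hmC as a share of modified calls was not computed. Corrected HC/CH was 0.672% and 0.843% in the H19 control region, and 0.832% and 0% in the IG-DMR. The Rasgrf1 control region had HC/CH at 3.93% in replicate 1 and at 0 of 90 calls in replicate 2, which allows up to 3.33%. Dlk1 had the highest gene body level of HC/CH among the members, at 8.34% and 7.41%, followed by Meg3, with H19 left aside for its 10 calls in replicate 2. The gene body of Rasgrf1 was at 3.37% and 2.41%, below the median of 4.81% and 4.09% over the ranked genes.

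In each locus, the bins with the highest hmC level in the lower of the replicates were taken among those with at least 5 CpG sites and 30 calls in each. For HC/CH, that of Meg3 lay from 28 to 29 kb, in the last exon, with 7.69% and 8.57%. For HM/MH, that of Meg3 lay from 9 to 10 kb, with 10.7% and 10.0%. In Rasgrf1, the bin from -3 to -2 kb led for both, with HC/CH at 8.14% and 6.25% and HM/MH at 9.30% and 9.38%. In Dlk1, where only 5 bins could be compared, the bin from 8 to 9 kb led for both, with HC/CH and HM/MH each at 6.92% and 6.06%. In H19, with only 3 such bins, it was the bin just upstream of the TSS, with each at 2.97% and 6.45%. In Igf2 only 2 bins could be compared, and HC/CH reached 1.26% and 2.13% in the bin from 5 to 6 kb, where HM/MH was 0.420% and 0 of 47 calls. These leading bins were not all above their locus as a whole: HC/CH over the Igf2 locus was 2.925% and 3.204%, and over the H19 locus 3.89% and 4.45%, while over the Meg3 locus it was 4.27% and 3.96%. With 31 to 47 calls per bin in replicate 2, each such level rests on a few calls, and the bins were chosen for being highest. HM/MH is given here as called, before correction. The neighbouring bins upstream of Dlk1, from -5 to -2 kb, had HC/CH at 20.3%, 11.8% and 12.5% in replicate 1, and were too thinly covered in replicate 2 to be compared. The interval of the share of hmC on the strand of the gene included 50% for HC/CH and HM/MH in each gene and replicate, except HM/MH at Dlk1 in replicate 2. At Meg3 the hmC of HC/CH calls lay on the strand of the gene in 53.6% of 276 calls in replicate 1 (interval 47.6 to 59.6) and 48.4% of 64 calls in replicate 2. At Dlk1 the share among HM/MH calls was 78.6% of 28 calls in replicate 2 (interval 59.05 to 91.70) and 44.2% of 172 calls in replicate 1.

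Intermediate CC was about as common in the 1 kb bins of these loci as in those elsewhere. CC lay between 30 and 70% in 36 of the 257 bins with at least 5 CpG sites in replicate 1 (14.01%), beside 14.4% of all autosomal 1 kb bins. In replicate 2 it did so in 8 of 57 bins (14.04%), beside 14.6% of autosomal bins, and in both replicates in 5 of 56 bins (8.93%), beside 10.6%. These shares are close to the background and are no result about the loci. In bins of 0.5 kb the shares were higher, at 20.4% in replicate 1 (autosomes 15.55%), 6 of 30 bins in replicate 2 (autosomes 14.7%) and 14.3% of 28 bins in both (autosomes 10.6%). The 5 bins were both bins of the H19 control region, the Meg3 bin just downstream of the IG-DMR, from -10 to -9 kb, the Dlk1 bin from -28 to -27 kb and the Igf2 bin from 12 to 13 kb.

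The promoters of the members ranged from 9.84% CC at Igf2 to 96.3% CC at Rasgrf1 in replicate 1. CC lay between 30 and 70% at 2 of 5 member promoters in replicate 1, H19 and Dlk1, and at 0 of the 4 with enough sites in replicate 2. Over the promoters of all autosomal genes this share was 15.9% in replicate 1 and 16.9% in replicate 2. Among 10 neighbours in the same or a like cluster (Ins2, Th, Nctc1 and Mrpl23 near Igf2 and H19, Begain, Rtl1, Rian, Mirg and Dio3 near Dlk1 and Meg3, and Zdbf2), only the promoter of Begain was in this range, at 47.0% and 33.9% CC, though replicate 2 measured just 5 of them. The promoters of Mirg, Rian and Rtl1, downstream of Meg3, were 5.71%, 7.04% and 5.77% CC in replicate 1, and that of Dio3, at the far end of the cluster, was 91.4% CC. Of 12 genes with a control region methylated in the egg, 11 promoters had enough sites in replicate 1, and 5 of these, at Airn, Nap1l5, Nnat, Peg13 and Plagl1, had CC between 30 and 70%. In replicate 2 these were 2 of 10, at Nap1l5 and Peg13. These windows were set at the first annotated start, which need not be the methylated promoter, and that of Mest was only 5.00% CC. Of the promoters of this list with at least 50 calls in both replicates, all but Plagl1 had low strand coupling ratios, from 0.112 to 0.274 in replicate 1 and from 0.0421 to 0.277 in replicate 2. Peg3, for instance, had 0.112 and 0.123, beside 0.113 and 0.0644 in the IG-DMR, and Plagl1 had 0.487 and 0.960. Most of the promoters with low ratios had CC above the range of the autosomal bins, such as Peg3 at 86.54% and 81.65%. Some ratios of replicate 2 rest on few calls, with 1 strand modified in 1 of 305 calls at Peg10 and 2 of 400 at Zrsr1.

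Zdbf2, another gene with a region methylated in sperm upstream of it, was measured in the same way and did not resemble H19 or Meg3. From 16 to 8 kb upstream of its TSS, CC was 17.9% of 1134 calls in replicate 1 (interval 15.7 to 20.3) and 11.5% of 355 calls in replicate 2, and MM 56.6% and 64.5%. These levels differed from those of its own gene body by 1.11 and -0.235 percentage points of CC. HC/CH was 6.44% and 5.63% there, and the strand coupling ratio was 0.516 and 0.625. The window spans 8 kb, so a shorter mixed stretch inside it would be averaged out.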

How the data were processed

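SCoTCH-seq libraries of 2 E14 samples, 1 group, were compared region by region, each replicate apart. The authors trimmed reads (cutadapt 4.6, per the submitters' processing notes), mapped the inserts with BSBolt against GRCm38, marked out PCR duplicates (Picard 3.1.1) and dropped sites with under 5 calls, in blacklisted regions or with several calling errors. The deposited counts are read pairs of each CpG state at each site, and the deposited depth is their sum. The deposited percent values equal count over depth and were checked.

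The members and gene lists were chosen with earlier results of these data known. All deposited positions lay on CpGs of GRCm38.p6, and sequences come from that RefSeq assembly. Counts were summed over the sites of each region in pandas 2.3.3 and NumPy 2.4.6 under Python 3.11.15, intervals came from SciPy 1.17.1 and plots from Matplotlib 3.10.9. Regions follow GENCODE vM21. Named were the 5 members, the listed neighbours and maternally methylated genes, and in each member the bins with the highest HC/CH and HM/MH level in the lower replicate, while other bins were named after their values were seen. The library-wide background used 19 autosomes. Levels, intervals and coupling ratios were checked on simulated calls, which were drawn independently at each site. Alternatives were a minimum of 10 calls, only sites in both replicates, per-site means, spike-in correction from 25 duplex sites, wider windows, other bin sizes and ranges, other gene sets and leaving out each replicate. The samples are different passages of 1 line, so their spread does not cover differences between lines, and its sources were not tested.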

Additional observations from a re-analysis of the deposited data

How the results depend on the processing

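No paired analysis was possible because both samples belong to 1 group and no groups could be paired, while differences between regions were taken within each replicate. No difference in CC or MM between a control region and its comparison region changed sign under any alternative run. Levels and ratios cannot be negative, so no change of sign was possible for them. The order of HC/CH in the H19 control region against the autosomes did change in replicate 2 with the wider window. Leaving out a replicate gave CC in the control region between 39.4 and 42.5% for H19, 73.0 and 76.0% for Meg3 and 56.3 and 77.8% for Rasgrf1. With control windows 1 kb wider on each side, CC at H19 fell to 35.7%, and at Rasgrf1 to 52.3%, with its difference from the gene body at 41.9 points. With sites in both replicates, MM in the Rasgrf1 control region was 11.0%. With a minimum of 10 calls per site, the IG-DMR exceeded the Meg3 gene body by 45.2 percentage points of CC, with gene body CC at 21.3% and 40.7%. Too few calls were left in replicate 2 for H19, Igf2, Dlk1 and the Rasgrf1 control region, so this minimum was not run for them. Also not run for want of sites were that minimum for the strand coupling of the Meg3 promoter and the replicate 2 promoters of members and neighbours, sites in both replicates for the H19 hexamers, and the rank of Igf2 among genes with 50 sites, while Meg3 is noncoding and has no rank among protein-coding genes. With only sites in both replicates, the strand coupling ratio of the Rasgrf1 control region was 0.551. The count of bins with intermediate CC depended on its definition. In replicate 1 it was 17 of 257 with a CC range of 40 to 60% (6.62%, autosomes 6.20%), 21 of 104 with 10 sites per bin (20.2%, autosomes 16.97%) and 17 of 86 with 10 calls per site (19.8%, autosomes 15.8%). In replicate 2 these were 5 of 57 (8.77%, autosomes 6.78%), 1 of 4 and 0 of 1, and in both replicates 3 of 56 (5.36%, autosomes 3.35%), 0 of 4 and 0 of 1. With 10 sites or 10 calls, fewer bins were measured, so the counts fell while the share in replicate 1 did not. With bins of 2 kb, 28 of 168 were intermediate in replicate 1 (16.7%, autosomes 13.9%), 12 of 94 in replicate 2 (12.8%, autosomes 13.9%) and 9 of 94 in both (9.57%, autosomes 9.98%). With bins of 0.5 kb these were 50 of 245, 6 of 30 and 4 of 28, all above the autosomal shares. The promoters with intermediate CC in replicate 1 were 1 of 3 members with 10 calls per site and 0 of 3 with sites in both replicates, and 5 of 10 and 3 of 9 genes with maternally methylated control regions. For the latter genes in replicate 2 they were 0 of 2 and 4 of 9. For the 1 kb bins in both replicates, without replicate 1 the count was 8, and without replicate 2 it was 36. Of 333 values computed under an alternative, 62 counted as moved, and the cause was not tested. A level, difference, ratio or rank counted as moved when it differed by more than the SD of the replicates. A count did so when it changed by over 1.5 times. Leaving out a replicate cannot shift a level, difference or ratio beyond that SD, so these values of the 333 could not count as moved. The depth of replicate 2 limits single bins and motif sites to a few calls.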
